A study of Mus musculus with 11 samples.

Results

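CD4+CD8+ T cells that lack the transcription factor Thpok were compared with wild-type CD4+CD8- T cells after both had been cultured as Th1 effectors. The comparison takes the 3 arrays titled DPmut and the 3 arrays titled CD4wt, 6 of the 11 arrays of the series, and reads every probe set in them. It was repeated without replicate 3 of either group, whose signal range is narrow. DPmut cells came from Thpokf/f CD2cre mice, whose floxed Thpok alleles are removed by Cre under control of CD2, and they carried both CD4 and CD8 on their surface at the sort. CD4mut cells (3 arrays) had the same genotype and were CD4+CD8-. CD8wt cells (2 arrays) were wild-type and CD4-CD8+. CD4wt cells were wild-type and CD4+CD8-. The labels do not give the stage, the efficiency or the exon of the deletion, nor the age of the mice.

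All 4 groups shared one culture. CD44lo T cells of the spleen were stimulated through CD3 (antibody at 1 µg/ml) and CD28 (antibody at 3 µg/ml) on irradiated C57BL/6 splenocytes from which T cells had been removed. Th1 conditions were set with IL-12 at 10 ng/ml, IL-2 at 50 U/ml and 10 µg/ml of antibody that blocks IL-4, and cells were sorted on day 4. RNA from sorted populations was measured in bulk, so fewer cells that express a gene and less RNA per cell cannot be told apart. The replicates came from a pair of distinct cell preparations, and no label ties an array to a preparation. The p-values therefore measure the spread between these arrays, which may be partly technical.

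Thpok, the zinc finger protein encoded by Zbtb7b, commits MHC class II-restricted thymocytes to the CD4 helper lineage and represses genes of the CD8 lineage. Runx3 works in the opposite direction in CD8 cells, where it silences Cd4 and Zbtb7b. Mature helper cells provide help through CD40 ligand, whereas cytotoxic cells kill through perforin and granzymes. Th1 cultures with IL-12 induce T-bet and interferon-gamma in both lineages.

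Values are the deposited log2 intensities of 16673 probe sets. The SD of an array's values was 1.70 in DPmut 3 and 1.54 in CD4wt 3, and it lay between 1.94 and 2.06 in the other 9 arrays. The median of the 809 probe sets of olfactory and like receptor genes, which T cells are not known to use, was 4.21 in DPmut 3 and 4.79 in CD4wt 3, and 3.26 to 3.68 in the others. T cell markers were bright in both groups, with list means between 10.00 and 10.29 in DPmut and between 9.60 and 10.47 in CD4wt. B cell markers averaged 4.47 to 4.97 in DPmut and 4.21 to 5.13 in CD4wt, and myeloid markers 4.61 to 5.11 in DPmut and 4.39 to 5.02 in CD4wt. NK cell markers averaged 4.50 to 4.84 in DPmut and 4.29 to 4.81 in CD4wt, and erythroid markers 4.69 to 5.27 in DPmut and 4.60 to 5.36 in CD4wt. MHC class II genes averaged 5.66 to 6.40 in DPmut and 5.55 to 6.25 in CD4wt. No marker list held a gene that passed the test. Of single markers, Cd79b, a B cell receptor subunit, read 6.93, 5.64 and 6.41 in DPmut and 4.53, 4.62 and 5.81 in CD4wt. The macrophage marker Cd68 read 8.70, 7.49 and 8.71 in DPmut and 7.37, 7.20 and 7.05 in CD4wt. Each had the highest difference of its list, 1.34 for Cd79b and 1.09 for Cd68. The list median was -0.04 over 9 measured B cell markers, of which 5 had a negative difference. It was 0.04 over 14 measured myeloid markers, of which 4 had a negative difference. The part of either cell type in the results was not tested.

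Zbtb7b itself read 6.79, 6.30 and 7.0 in DPmut replicates 1 to 3, against 8.70, 8.55 and 8.03 in CD4wt. Every DPmut array lay below every CD4wt array. The gene fell by 1.73 ± 0.25 on the log2 scale (limma, adjusted p = 0.0246). It stood at 6.77, 6.77 and 7.17 in CD4mut and at 6.89 and 7.23 in CD8wt, close to the DPmut values. No source used here says where the probes of this probe set lie relative to the deletion, so the value checks the labels only as far as the probes reach that segment. Zbtb7a, the related factor LRF, read 7.93, 7.40 and 7.78 in DPmut and 7.88, 7.63 and 6.82 in CD4wt. Its difference of 0.26 ± 0.27 did not pass the test and was -0.10 without the narrow arrays.

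Of all probe sets, 23 were higher in DPmut (0.138% of those tested) and 11 were lower (0.066%) at an adjusted p under 0.05 by limma. A single gene symbol was carried by 31 of these 34, and the others carried several or none. In all 34, the 3 DPmut values lay on one side of the 3 CD4wt values, which was true of 1646 probe sets (9.87%) among all tested. The change was at least 1 on the log2 scale in 33 of them. The probe sets passing the test included the CD8 coreceptor genes, effector genes of cytotoxic T cells and the cytokine gene Il10 among those that rose. Genes of T cell help, homing and quiescence were among those that fell. The median over all probe sets was 0.00, and 50.4% of them had a positive difference. The counts moved with single arrays, to 3 higher and 1 lower without DPmut 3 and to 40 higher and 30 lower without CD4wt 1. The error of each difference came from 1 fit to all 11 arrays. With only the 6 arrays of both groups in the fit, 3 were higher and 1 lower, so most calls depend on arrays outside the comparison. The counts were 60 and 86 when the arrays were quantile normalized once more, and 9 and 2 when each array was centred on its median.

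**Figure D1:**
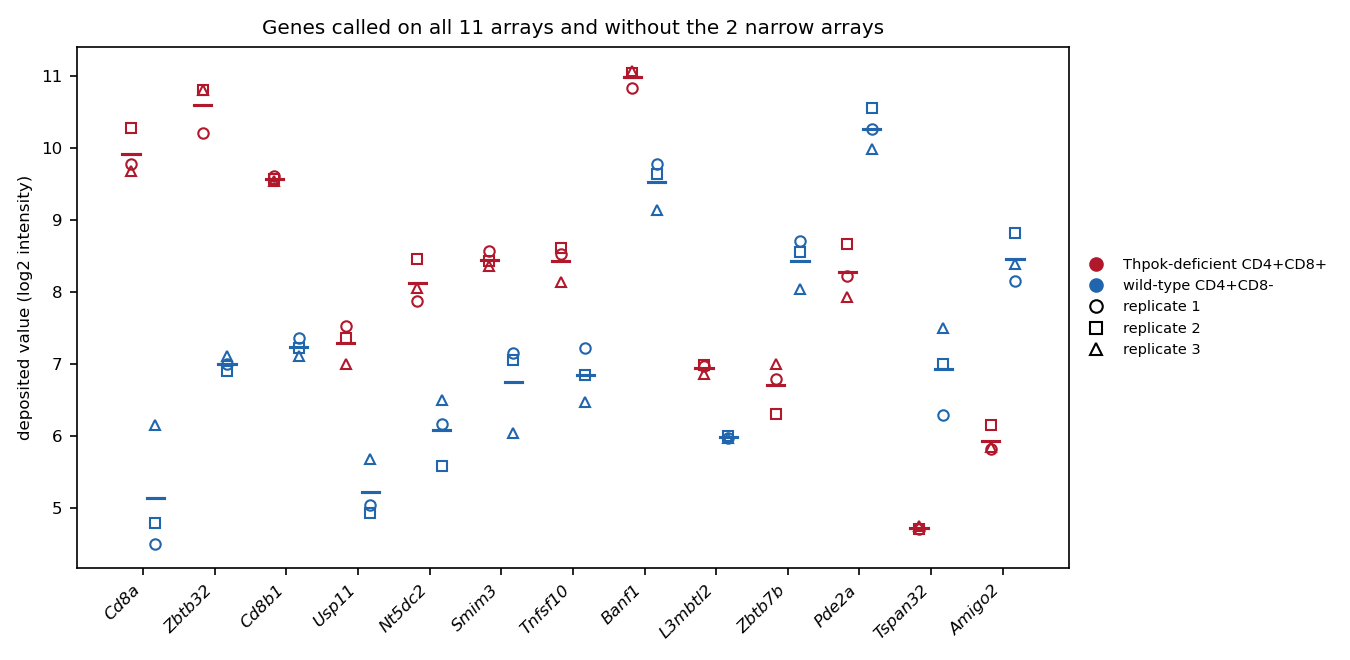
Log2 intensity of the 13 genes that passed the test on all 11 arrays and again without both narrow arrays, in the 3 Thpok-deficient CD4+CD8+ arrays (red, left) and the 3 wild-type CD4+CD8- arrays (blue, right); marker shapes give the replicate and short lines the group mean. In each gene the red and blue points do not overlap, and Cd8a shows the widest distance, 4.77 on the log2 scale.

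The genes of the CD8 coreceptor marked the sort and were the clearest difference. Cd8a, which encodes the alpha chain, read 9.77, 10.28 and 9.67 in DPmut, against 4.49, 4.78 and 6.14 in CD4wt. The DPmut arrays were close together and far above CD4wt, in which replicate 3 was the highest. The gene rose by 4.77 ± 0.41 (adjusted p = 0.00103). Cd8b1, the beta chain, read 9.61, 9.56 and 9.54 in DPmut, against 7.36, 7.22 and 7.10 in CD4wt. It rose by 2.34 ± 0.18 (adjusted p = 0.000629). Cd4 read 10.32, 9.19 and 9.77 in DPmut and 10.87, 10.37 and 9.61 in CD4wt. These ranges overlapped, and the difference of -0.52 ± 0.40 (95% interval -1.40 to 0.35) did not pass the test (adjusted p = 0.953).

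Against the other groups, DPmut took a middle place for CD8. Cd8a stood at 7.50, 6.41 and 6.99 in CD4mut and at 11.78 and 11.56 in CD8wt, with all DPmut values between them. DPmut exceeded CD4mut by 2.94 (95% interval 2.04 to 3.85) and was below CD8wt, with a difference of -1.76 (95% interval -2.77 to -0.75). Cd8b1 followed the same order, at 8.48, 7.96 and 8.42 in CD4mut and 11.11 and 11.25 in CD8wt. It differed from CD4mut by 1.28 (95% interval 0.88 to 1.68) and from CD8wt by -1.61 (95% interval -2.06 to -1.16). Neither gene passed the test in either comparison after adjustment over all probe sets (limma, adjusted p = 0.188 for both against CD4mut, 0.828 for Cd8a and 0.0659 for Cd8b1 against CD8wt).

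The other members of the CD8 lineage list leaned the same way. All 13 measured members had a positive difference, with a median of 1.12 against 0.00 over all probe sets, and 4 passed the test (Cd8a, Cd8b1, Cd160 and Tnfrsf9). The median was 0.75 without the narrow arrays. The list counts genes of the sort markers and was drawn up with these data known.

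Zbtb32 was the transcription factor gene that rose. It encodes a BTB zinc finger repressor that restrains the proliferation and cytokine output of activated lymphocytes. Its values were 10.20, 10.80 and 10.80 in DPmut, against 6.99, 6.89 and 7.11 in CD4wt. The 3 arrays of each group were tightly grouped, far from each other. The difference was 3.60 ± 0.28 (adjusted p = 0.000629), and it was 3.56 without the narrow arrays (adjusted p = 0.0315). CD4mut at 10.69, 10.55 and 10.07 and CD8wt at 9.85 and 10.84 lay at the DPmut level, with a DPmut minus CD4mut difference of 0.16 (95% interval -0.46 to 0.78). Klf3, a Krüppel-like repressor related to Klf2, read 6.28, 6.85 and 6.72 in DPmut, against 8.32, 9.33 and 8.66 in CD4wt. It fell by 2.16 ± 0.30 (adjusted p = 0.0246) with no overlap between the groups, and did not pass without the narrow arrays (adjusted p = 0.0884).

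The factors best known for directing CD8 and Th1 differentiation showed smaller differences. Runx3 read 10.49, 10.27 and 10.64 in DPmut and 10.31, 10.31 and 9.58 in CD4wt, overlapping ranges with a difference of 0.40 ± 0.30 (adjusted p = 0.951). Eomes, a T-box factor of cytotoxic and memory cells, read 6.46, 7.42 and 6.96 in DPmut and 6.37, 6.13 and 6.70 in CD4wt. Its ranges also overlapped, and its difference was 0.55 ± 0.27 (adjusted p = 0.631). Tbx21, which encodes T-bet, read 9.65, 10.24 and 10.05 in DPmut and 9.43, 9.60 and 9.29 in CD4wt. The DPmut values were all slightly higher, yet the difference of 0.54 ± 0.22 did not pass the test (adjusted p = 0.438). Gata3, needed for CD4 lineage choice and Th2 cells, read 8.80, 8.57 and 8.24 in DPmut and 9.56, 9.79 and 8.82 in CD4wt. Its groups did not overlap and the difference was -0.85 ± 0.29 (adjusted p = 0.319). Differences were -0.60 ± 0.33 for Runx1, -0.52 ± 0.32 for Tox and 0.05 ± 0.27 for Cbfb, the shared Runx partner, with overlapping ranges in each; Cbfb stood at -0.05 after further quantile normalization. Of 27 measured lineage transcription factors, 1 rose (Zbtb32) and 1 fell (Zbtb7b, the gene targeted by the deletion) by the test, and the median was 0.05. Klf3 is not a member of that list.

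Promoter sequence is shown for a few of the genes that passed the test, so that the start of each can be read beside its values. RefSeq entries (GRCm38.p6, 250 bases before and 50 after a gene's start) were found for 23 of the 31 named genes, 36 entries in all. Capitals mark a match on either strand to TGTGGT, the core that Runx proteins bind, read as ACCACA on the other strand, or to AGGTGT, a T-box core, read as ACACCT. The motifs do not overlap each other in these windows. TGTGGT was found in 12 of the 36 entries (33.3%) and in 16.8% of all 32851 promoters of the same length. Entries of a gene are not independent: Pde2a has 5, and some of these overlap and share a match. By gene, TGTGGT was in an entry of 6 of 15 higher and 4 of 8 lower genes. The share by gene was not counted over all promoters, and enrichment was not tested. AGGTGT was found in 3 of the 36 entries (8.33%) and in 13.7% of all promoters. Cd8a, Gzmk and Tnfrsf9 have entries and rose more than Prf1, but are not printed. Cd8a holds neither motif, Gzmk holds AGGTGT and an entry of Tnfrsf9 holds TGTGGT. Zbtb32 and Prf1, both higher in DPmut, and Tspan32 and Amigo2, both lower, are given from 5′ to 3′ on the gene's strand.
Zbtb32 chr7:30598860-30599159, minus strand: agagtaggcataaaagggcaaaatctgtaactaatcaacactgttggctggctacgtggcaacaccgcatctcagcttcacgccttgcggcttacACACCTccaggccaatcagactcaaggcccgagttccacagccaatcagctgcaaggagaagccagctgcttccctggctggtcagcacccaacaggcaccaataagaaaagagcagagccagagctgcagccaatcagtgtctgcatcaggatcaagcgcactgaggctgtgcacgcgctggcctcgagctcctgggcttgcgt
Prf1 chr10:61297586-61297885, plus strand: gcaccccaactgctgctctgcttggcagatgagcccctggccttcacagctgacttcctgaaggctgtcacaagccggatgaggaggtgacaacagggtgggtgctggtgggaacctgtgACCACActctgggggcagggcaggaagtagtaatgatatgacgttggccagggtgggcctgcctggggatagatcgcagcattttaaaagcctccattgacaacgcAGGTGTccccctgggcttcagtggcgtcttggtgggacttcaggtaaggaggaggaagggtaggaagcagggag
Tspan32 chr7:143004796-143005095, plus strand: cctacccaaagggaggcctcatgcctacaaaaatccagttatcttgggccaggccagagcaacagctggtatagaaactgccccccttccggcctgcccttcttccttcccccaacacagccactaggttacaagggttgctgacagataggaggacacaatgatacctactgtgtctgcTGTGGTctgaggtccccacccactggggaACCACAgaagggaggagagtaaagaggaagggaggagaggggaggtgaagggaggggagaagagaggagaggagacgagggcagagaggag
Amigo2 chr15:97247238-97247537, minus strand: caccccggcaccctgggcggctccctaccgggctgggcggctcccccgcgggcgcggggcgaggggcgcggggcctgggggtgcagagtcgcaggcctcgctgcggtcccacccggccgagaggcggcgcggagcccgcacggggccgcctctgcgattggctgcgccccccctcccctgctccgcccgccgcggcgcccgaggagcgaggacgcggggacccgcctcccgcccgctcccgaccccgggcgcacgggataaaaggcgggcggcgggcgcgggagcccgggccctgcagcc
A further RefSeq entry of Zbtb32, with another start and not printed, holds TGTGGT and no AGGTGT. The matches are descriptions of these windows and not measured sites.

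A pair of cytotoxic genes, Prf1 and Gzmk, rose by the test. Prf1, which encodes the pore-forming protein perforin, read 9.63, 9.12 and 9.25 in DPmut, against 7.02, 7.07 and 6.49 in CD4wt. The lowest DPmut array was well above the highest CD4wt array. The gene rose by 2.47 ± 0.28 (adjusted p = 0.00907). Gzmk, a granule protease, read 7.15, 7.20 and 6.94 in DPmut, against 3.55, 5.01 and 4.97 in CD4wt. It rose by 2.58 ± 0.34 (adjusted p = 0.0164) and CD4wt 1 was the lowest array. The CD4wt 1 and CD4wt 3 values lay near those arrays' medians for olfactory and like receptor genes, 3.44 and 4.79. Without the narrow arrays neither gene passed, with Prf1 at 2.33 and Gzmk at 2.89 (adjusted p = 0.0589 for both). Both genes stood near the DPmut level in CD4mut, at 9.44, 8.67 and 9.12 for Prf1 and at 7.0, 7.0 and 7.01 for Gzmk. In CD8wt, Prf1 was at 9.45 and 10.21 and Gzmk at 7.51 and 7.89.

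Other cytotoxic genes were higher without passing the test. Gzmb, the granzyme that activates caspases in target cells, read 11.82, 11.67 and 12.05 in DPmut, against 10.68, 9.40 and 4.83 in CD4wt. All DPmut arrays were higher, and the CD4wt arrays spread over almost 6 units. The value in CD4wt 3 lay near that array's median of 4.79 for olfactory and like receptor genes. The difference was 3.54 ± 1.10 (adjusted p = 0.261), and it was 1.70 without the narrow arrays, of which CD4wt 3 held the lowest value (adjusted p = 0.142). Gzma read 9.71, 9.25 and 8.76 in DPmut and 8.56, 7.10 and 6.38 in CD4wt, a difference of 1.89 ± 0.46 (adjusted p = 0.141). Nkg7, a protein of cytotoxic granules, read 11.91, 11.96 and 12.29 in DPmut and 10.66, 11.12 and 10.03 in CD4wt, a difference of 1.45 ± 0.26 (adjusted p = 0.0691). All 15 measured members of the cytotoxic list had a positive difference, 2 rose by the test and the median was 0.76. Without the narrow arrays 14 of 15 were positive and the median was 0.37.

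Il10 was the cytokine gene that passed the test. It encodes an anti-inflammatory cytokine that effector T cells can make beside interferon-gamma. Its values were 9.74, 8.80 and 9.60 in DPmut, against 7.01, 5.66 and 4.52 in CD4wt. The DPmut arrays lay within 1 unit of each other, and all were higher than CD4wt. The value in CD4wt 3 lay below that array's median of 4.79 for olfactory and like receptor genes. The gene rose by 3.65 ± 0.56 (adjusted p = 0.0326). It did not pass without the narrow arrays, at 2.93 (adjusted p = 0.120). Il10 was at 9.59, 8.33 and 8.87 in CD4mut and at 9.14 and 9.88 in CD8wt.

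Ifng, the defining Th1 cytokine, was bright in both groups. It read 11.70, 11.53 and 11.72 in DPmut, against 10.48, 9.88 and 7.63 in CD4wt. The groups did not overlap, and the difference of 2.32 ± 0.55 did not pass the test (adjusted p = 0.138). It was 1.43 without the narrow arrays (adjusted p = 0.0720). Tnf read 9.29, 8.01 and 8.56 in DPmut and 8.62, 6.65 and 5.45 in CD4wt, with overlapping ranges. Of 19 measured cytokine genes 10 had a positive difference, and the median was 0.12. Il2, Il4, Il13, Il17a and Csf2 differed by between -0.14 and 0.17.

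Chemokine genes were mostly on the positive side, 10 of 11 with a median of 0.45, and none passed the test. Ccl3, a chemokine that attracts myeloid and T cells, read 10.34, 8.21 and 8.86 in DPmut, against 7.37, 4.94 and 5.89 in CD4wt. Each DPmut array was about 3 units above the CD4wt array of the same number. The difference was 3.07 ± 0.75 (adjusted p = 0.142), and it passed with the replicate number as a block (adjusted p = 0.0391).

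Receptors and ligands of the TNF family moved in both directions. Tnfrsf9, the costimulatory receptor 4-1BB, read 10.02, 10.10 and 9.89 in DPmut, against 8.03, 7.66 and 6.59 in CD4wt. It rose by 2.58 ± 0.38 (adjusted p = 0.0246), and did not pass without the narrow arrays, at 2.21 (adjusted p = 0.0800). Tnfsf10, which encodes the death ligand TRAIL, read 8.52, 8.61 and 8.13 in DPmut, against 7.21, 6.84 and 6.46 in CD4wt. It rose by 1.58 ± 0.23 (adjusted p = 0.0246).

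Cd40lg, which encodes the ligand through which helper T cells activate B cells and dendritic cells, showed the deepest fall of all genes that passed the test. Its values were 6.47, 5.57 and 4.87 in DPmut, against 9.34, 8.99 and 8.28 in CD4wt. No DPmut array came within 1 unit of CD4wt. The gene fell by 3.24 ± 0.46 (adjusted p = 0.0246), and by 3.14 without the narrow arrays (adjusted p = 0.0720). It read 6.05, 6.14 and 7.43 in CD4mut and 4.14 and 4.25 in CD8wt, so DPmut lay between them on average. Its difference from CD4mut was -0.91 and from CD8wt 1.44 (95% interval 0.31 to 2.57), and neither passed the test.

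Of the 12 measured genes of the helper list 11 had a negative difference, with a median of -0.62, and Cd40lg and Zbtb7b fell by the test. Zbtb7b is the gene targeted by the deletion, and the list was drawn up with these data known. Tnfsf8, the CD30 ligand, read 4.01, 4.81 and 4.72 in DPmut, against 5.48, 7.91 and 7.66 in CD4wt, a difference of -2.50 ± 0.56 (adjusted p = 0.117). Tnfrsf25, the receptor DR3, read 6.51, 7.25 and 6.78 in DPmut, against 7.89, 9.05 and 8.76 in CD4wt, a difference of -1.72 ± 0.31 (adjusted p = 0.0754). Neither gene's groups overlapped. Over the whole families, the medians were 0.01 for 13 TNF ligands and -0.04 for 13 TNF receptors.

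Ccr7 and Klf3 fell among genes of homing and quiescence. Ccr7, which guides naive and central memory T cells into lymph nodes, read 8.28, 9.10 and 8.39 in DPmut, against 10.18, 10.69 and 10.73 in CD4wt. It fell by 1.95 ± 0.31 (adjusted p = 0.0390), and by 1.75 without the narrow arrays (adjusted p = 0.142). S1pr1, the receptor for exit from lymph nodes, read 8.38, 9.31 and 8.0 in DPmut, against 10.00, 10.87 and 10.77 in CD4wt. Its difference of -1.98 ± 0.36 narrowly missed the threshold (adjusted p = 0.0754). Klf2, which drives S1pr1 in resting T cells, read 7.68, 7.87 and 7.07 in DPmut, against 8.52, 9.35 and 8.28 in CD4wt. Its difference was -1.18 ± 0.30 (adjusted p = 0.159). S1pr1 and Klf2 passed with the replicate block (adjusted p = 0.0314 and 0.0427). Of the 15 measured members of the list 14 had a negative difference, 2 fell by the test (Klf3 and Ccr7) and the median was -0.41. Il7r and Foxo1 were near 0, at -0.23 and -0.02.

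**Figure D2:**
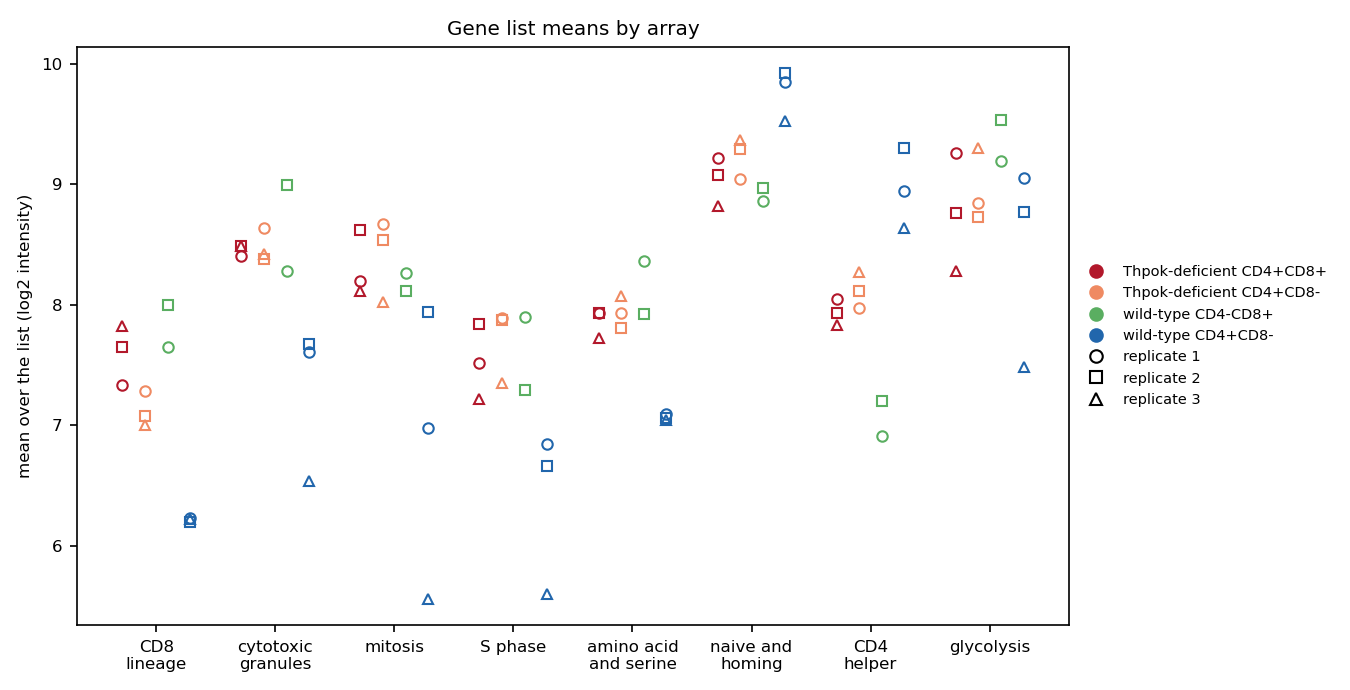
Mean log2 intensity (vertical axis) of 8 gene lists in each array, with the groups side by side from Thpok-deficient CD4+CD8+ (left) to wild-type CD4+CD8- (right) and a marker shape for each replicate number. The mitosis mean was 8.20, 8.62 and 8.11 in Thpok-deficient CD4+CD8+ arrays and 6.98, 7.94 and 5.56 in wild-type CD4+CD8- arrays, with replicate 3 of the wild type the lowest.

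Further surface molecules passed the test. P2rx3, an ATP-gated cation channel best known from sensory neurons, read 9.75, 10.42 and 9.67 in DPmut, against 6.15, 7.42 and 5.52 in CD4wt. It rose by 3.58 ± 0.52 (adjusted p = 0.0246) with no overlap, and did not pass without the narrow arrays, at 3.30 (adjusted p = 0.104). Cd160, a receptor of the immunoglobulin superfamily on NK and CD8 cells, read 6.42, 7.11 and 7.52 in DPmut, against 5.02, 4.78 and 5.12 in CD4wt. It rose by 2.04 ± 0.30 (adjusted p = 0.0246), and did not pass without the narrow arrays (adjusted p = 0.0881). Gpr65, a proton-sensing receptor, read 7.64, 8.26 and 7.94 in DPmut, against 6.36, 5.94 and 5.72 in CD4wt. It rose by 1.94 ± 0.23 (adjusted p = 0.0121), and did not pass without the narrow arrays (adjusted p = 0.0653).

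The surface genes that fell included Amigo2, an adhesion protein with leucine-rich repeats. It read 5.81, 6.14 and 5.84 in DPmut, against 8.15, 8.81 and 8.39 in CD4wt. The groups were 2 units apart at their nearest arrays. The gene fell by 2.52 ± 0.25 (adjusted p = 0.00291) and was at 5.28 to 6.07 in CD4mut and at 5.36 and 5.29 in CD8wt. Tspan32, a tetraspanin of blood cells, read 4.70, 4.70 and 4.74 in DPmut, against 6.28, 7.0 and 7.50 in CD4wt. It fell by 2.21 ± 0.26 (adjusted p = 0.0121). Their printed promoters stand above: Tspan32 holds the Runx core on both strands and Amigo2 holds neither motif.

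Vipr1, the receptor for the neuropeptide VIP, read 7.33, 8.10 and 7.21 in DPmut, against 8.94, 9.55 and 9.28 in CD4wt. It fell by 1.71 ± 0.27 (adjusted p = 0.0364), and did not pass without the narrow arrays (adjusted p = 0.124). Tlr1, a receptor of bacterial lipopeptides that pairs with TLR2, read 8.30, 8.17 and 7.45 in DPmut, against 9.49, 9.77 and 9.75 in CD4wt. It fell by 1.70 ± 0.25 (adjusted p = 0.0246), and did not pass without the narrow arrays (adjusted p = 0.0653). In CD8wt, Vipr1 stood at 6.21 and 6.28, below every DPmut array, and Tlr1 at 7.46 and 6.93, overlapping DPmut. Neither passed the test between DPmut and CD8wt (adjusted p = 0.828 for both). Tmem71, a membrane protein, fell by 1.47 ± 0.24 (adjusted p = 0.0411) and stopped passing when any single DPmut or CD4wt array was left out, as it did without both narrow arrays (adjusted p = 0.111).

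Signalling and nuclear genes completed the set. Pde2a, a phosphodiesterase that breaks down cyclic AMP and GMP, read 8.22, 8.66 and 7.92 in DPmut, against 10.26, 10.55 and 9.98 in CD4wt. It fell by 2.00 ± 0.25 (adjusted p = 0.0121). Usp11, a deubiquitinase, read 7.52, 7.35 and 6.99 in DPmut, against 5.03, 4.93 and 5.68 in CD4wt. It rose by 2.07 ± 0.27 (adjusted p = 0.0164). Nt5dc2 read 7.87, 8.45 and 8.05 in DPmut, against 6.16, 5.58 and 6.49 in CD4wt. It rose by 2.05 ± 0.25 (adjusted p = 0.0121). Banf1, which binds chromatin to the nuclear envelope, read 10.83, 11.04 and 11.07 in DPmut, against 9.77, 9.64 and 9.14 in CD4wt. It rose by 1.46 ± 0.19 (adjusted p = 0.0164).

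L3mbtl2, a Polycomb-type chromatin protein, read 6.97, 6.98 and 6.85 in DPmut, against 5.97, 5.99 and 5.96 in CD4wt. Its rise of 0.96 ± 0.16 (adjusted p = 0.0411) was the smallest change that passed, and its arrays were the most tightly grouped. Smim3 rose by 1.70 ± 0.27 (adjusted p = 0.0398). Rnf32, a RING finger protein, fell by 1.35 ± 0.22 (adjusted p = 0.0411) between low values, at 3.60 to 3.82 in DPmut and 4.74 to 5.61 in CD4wt, and did not pass without the narrow arrays (adjusted p = 0.0578).

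Shmt2, Slc7a1 and Slc43a3 rose among genes of nutrient supply. Shmt2, the mitochondrial enzyme that takes a carbon unit from serine, read 8.81, 8.56 and 8.39 in DPmut, against 7.15, 6.90 and 6.30 in CD4wt. It rose by 1.80 ± 0.28 (adjusted p = 0.0326). Slc7a1, an arginine and lysine transporter, read 8.12, 8.99 and 8.63 in DPmut, against 7.03, 7.16 and 7.28 in CD4wt. It rose by 1.42 ± 0.22 (adjusted p = 0.0352), and the solute carrier Slc43a3 by 2.08 ± 0.35 (adjusted p = 0.0479). Without the narrow arrays Shmt2, Slc7a1 and Slc43a3 did not pass (adjusted p = 0.0807, 0.0900 and 0.0819). Slc7a5, the large neutral amino acid transporter, read 10.49, 9.98 and 9.72 in DPmut, against 8.52, 8.22 and 8.10 in CD4wt. Its difference of 1.79 ± 0.30 lay just short of the threshold (adjusted p = 0.0547).

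Of the 18 measured members of the amino acid and serine list 16 had a positive difference, 3 passed the test (Shmt2, Slc7a1 and Slc43a3) and the median was 0.67. It was 0.86 without the narrow arrays, with all 18 positive. The list counts Slc43a3 as a solute carrier, and whether it carries amino acids was not checked here. Of 14 measured glycolysis genes 11 had a positive difference and none passed. Their median was 0.40, and it was 0.02 without the narrow arrays, with 7 positive. Whether the lists differ from each other was not tested.

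The measured members of the S phase and mitosis lists had positive differences on 11 arrays, and none of these members passed the test. All 31 measured S phase genes had a positive difference, with a median of 1.12, and all 30 mitosis genes did, with a median of 1.54. Mcm5, a subunit of the replicative helicase, read 9.05, 9.87 and 9.61 in DPmut, against 8.33, 8.18 and 6.28 in CD4wt. Ccna2, cyclin A2, read 9.47, 10.28 and 10.52 in DPmut, against 8.05, 9.04 and 6.02 in CD4wt. In both genes CD4wt 3 was lowest by over 1 unit. Without the narrow arrays the medians were 0.99 for S phase, with 30 of 31 positive, and 0.98 for mitosis, with all 30 positive.

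Mcm5 then differed by 1.21 (adjusted p = 0.157) and Ccna2 by 1.33 (adjusted p = 0.267). Pold2, a subunit of DNA polymerase delta outside those lists, read 8.58, 8.92 and 8.92 in DPmut, against 7.76, 7.03 and 7.0 in CD4wt, and rose by 1.55 ± 0.22 (adjusted p = 0.0246, and 0.0871 without the narrow arrays). Proliferation was not measured apart from these transcripts.

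**Figure D3:**
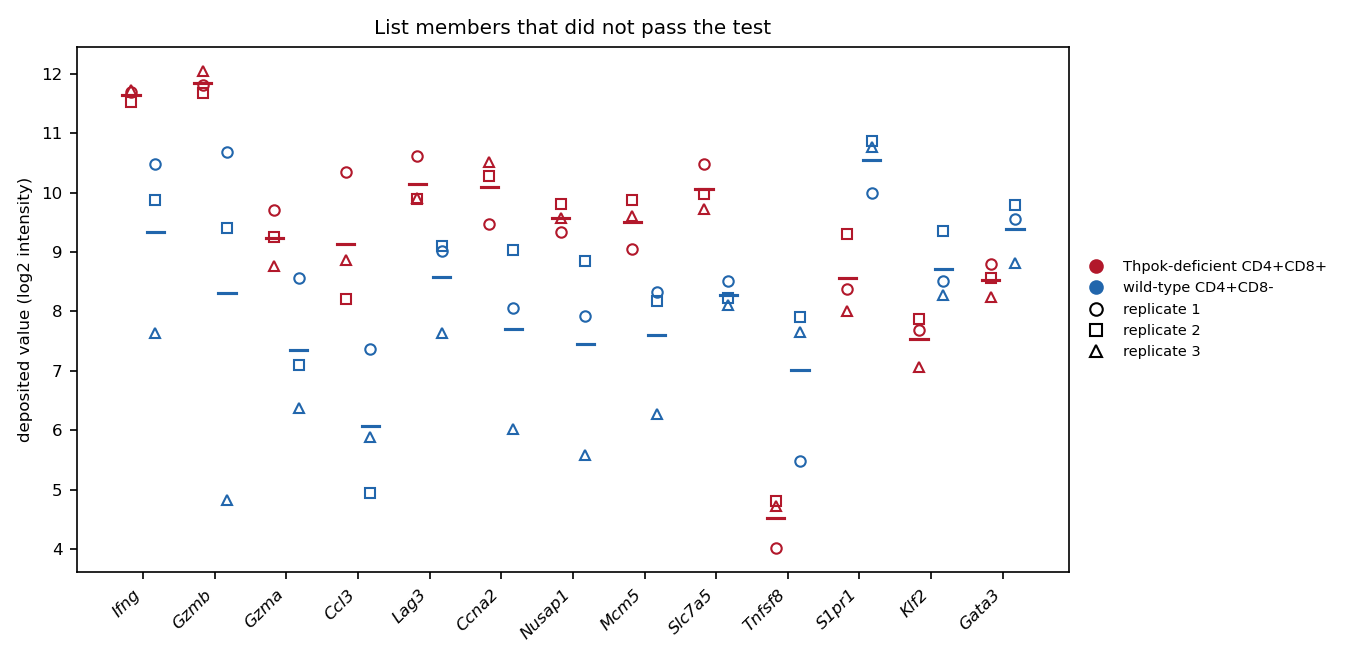
Log2 intensity by array of 13 list members that did not pass the test, with the Thpok-deficient CD4+CD8+ arrays left (red) and the wild-type CD4+CD8- arrays right (blue); marker shapes give the replicate and short lines the group mean. Gzmb shows the spread of the wild-type arrays, from 10.68 in replicate 1 to 4.83 in replicate 3.

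Receptors of activated and chronically stimulated T cells were mixed. Havcr2, which encodes TIM-3, Lag3 and Pdcd1, which encodes PD-1, had differences of 2.30 ± 0.71, 1.55 ± 0.38 and 1.49 ± 0.39, and none passed (adjusted p = 0.259, 0.141 and 0.176). Their DPmut and CD4wt arrays did not overlap. Btla and Cd200r1 lay on the other side, at -1.61 ± 0.44 and -1.28 ± 0.24 (adjusted p = 0.192 and 0.0768). Of 15 inhibitory and costimulatory receptors 10 had a positive difference, 1 rose by the test (Cd160) and the median was 0.33. NK-type receptors had a median of 0.15 over 13 genes, and T cell receptor signalling genes a median of -0.10 over 25, none of which passed.

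The comparison was repeated on 9 arrays, without DPmut 3 and CD4wt 3. It then called 28 probe sets (0.168%), 13 higher and 15 lower. Of the 34 probe sets named above, 13 were among them, namely Cd8a, Zbtb32, Cd8b1, Usp11, Nt5dc2, Smim3, Tnfsf10, Banf1, L3mbtl2, Zbtb7b, Pde2a, Tspan32 and Amigo2. All 34 had the same sign, and their log2 differences on 9 arrays were 0.752 to 1.20 times those on 11. The sign was fixed in advance, because the 9 arrays are among the 11 and the groups did not overlap in any of the 34. The highest adjusted p among those that no longer passed was 0.142 (Ccr7). The median over all probe sets was 0.05 there, and 9889 of all 16673 had a positive difference.

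**Figure D4:**
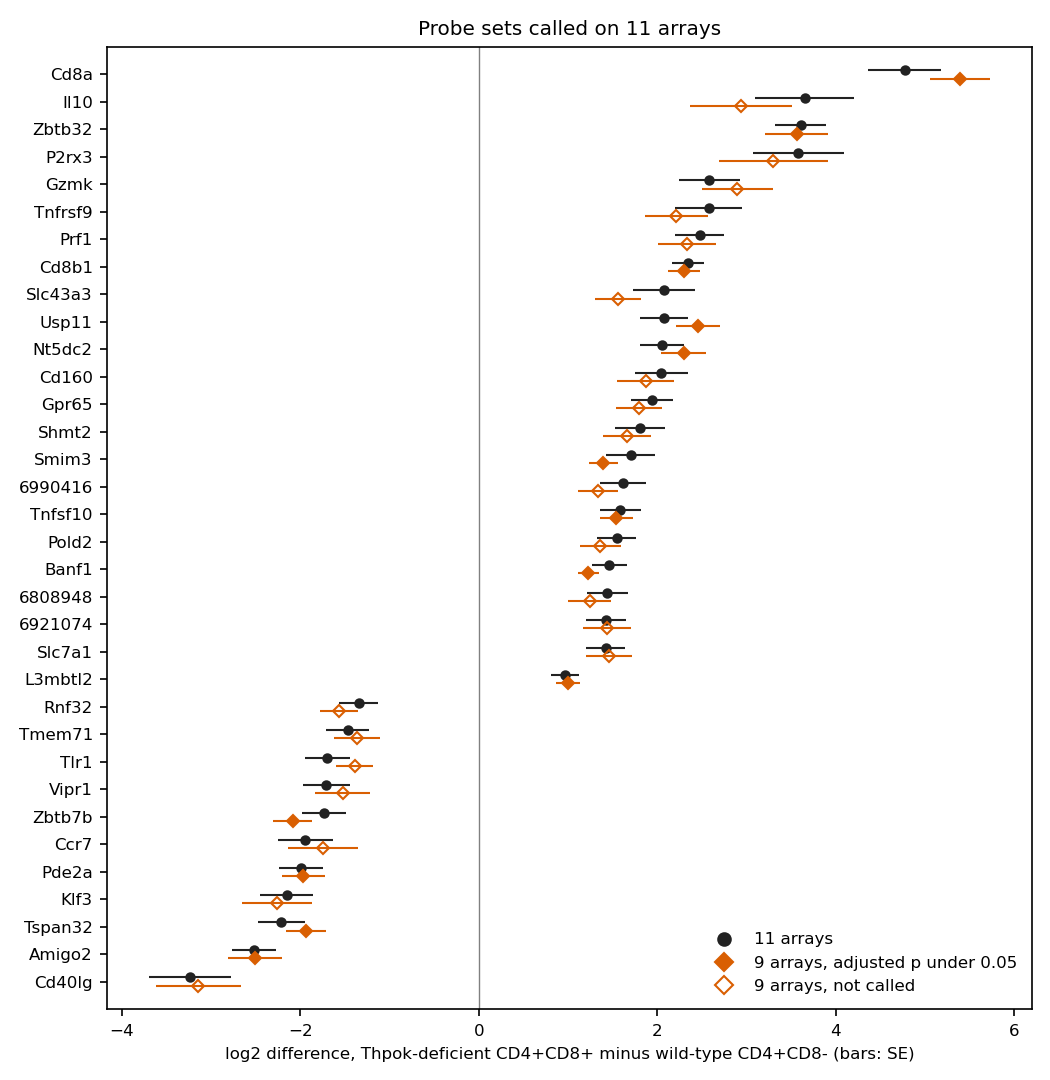
Log2 difference (horizontal axis) of Thpok-deficient CD4+CD8+ minus wild-type CD4+CD8- cells for the 34 probe sets that passed the test on 11 arrays, 1 per line, with bars of 1 SE. Black circles are fits to 11 arrays and orange diamonds fits to 9 arrays, filled where they pass. Zbtb32 stands at 3.60 and 3.56. No sign could change, because the 9 arrays are among the 11 and the groups do not overlap in these probe sets.

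The 9 arrays added 15 probe sets, and these are read from the smaller set alone. Fads2, a desaturase of polyunsaturated fatty acids, read 9.82 and 9.54 in DPmut 1 and 2, against 8.17 and 7.75 in CD4wt 1 and 2. Lss, the sterol synthesis enzyme lanosterol synthase, read 9.52 and 9.19 in DPmut, against 8.02 and 8.04 in CD4wt. Pole, the catalytic subunit of DNA polymerase epsilon, read 8.04 and 8.20 in DPmut, against 6.82 and 6.56 in CD4wt. These rose by 1.72 ± 0.21, 1.32 ± 0.16 and 1.43 ± 0.18 on the 9 arrays (limma, adjusted p = 0.0478, 0.0474 and 0.0490).

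Abca1, which exports cholesterol, fell by 0.94 ± 0.12 on the 9 arrays (adjusted p = 0.0498), and Izumo1r, the folate receptor 4 of regulatory and resting T cells, by 1.56 ± 0.19 (adjusted p = 0.0474). Lyst, a regulator of lysosome size, fell by 1.32 ± 0.13 (adjusted p = 0.0315), and Dst, a linker of the cytoskeleton, by 2.16 ± 0.24 (adjusted p = 0.0422). The interferon-induced gene Ifi27l2a fell by 2.03 ± 0.26 (adjusted p = 0.0498). Ccs, Cyth3, Madd, Sorcs2 and L1cam also fell, by 0.91 to 1.16. On 11 arrays the 13 named genes of this set had adjusted p-values from 0.0639 to 0.303.

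With the replicate number as a block, 86 probe sets passed (0.516%), 56 higher and 30 lower, and all 34 were among them. The additions held Ccl3, Slc7a5, S1pr1, Klf2, Tnfrsf25 and Btla, described above. They also held genes of the cell cycle: Bub1, a mitotic checkpoint kinase, at 2.06 ± 0.35, Ccne2, cyclin E2, at 1.79 ± 0.27, and Uhrf1, which maintains DNA methylation, at 1.65 ± 0.25 (SE and adjusted p = 0.0445, 0.0328 and 0.0314 from the fit with the block). Same-number arrays of the groups correlated at 0.650, 0.429 and 0.724 across genes after group means were removed. The highest value is that of replicate 3, whose signal range is narrow in both groups. DPmut 1 and CD4wt 2 correlated at 0.524, and without replicate 3 the pairs correlated at 0.257. The labels do not tie the numbers to preparations, so the pairing is not established.

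The DPmut cells were last set against the groups that share their genotype or their coreceptor. These differences are between group means that leave out CD4wt, while their errors come from the fit to all 11 arrays and so include the spread of the CD4wt arrays. No probe set passed between DPmut and CD4mut (0.0%; limma, 338 at an unadjusted p under 0.05), and 1 passed between DPmut and CD8wt (0.006%; 478 unadjusted). That gene was Cd4, at 10.32, 9.19 and 9.77 in DPmut, against 5.20 and 4.43 in CD8wt, a difference of 4.95 (adjusted p = 0.00483) in a gene of the sort marker. Of the 34 probe sets, 32 lay within 1 log2 unit of CD4mut and 30 within 1 unit of CD8wt. The share of all probe sets within 1 unit was not counted, so these counts do not set the 34 apart.

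At an unadjusted p under 0.05, 4 of the 34 differed from CD4mut, namely Cd8a, Cd8b1, Tmem71 and Tlr1. Tmem71 differed by -0.68 (95% interval -1.21 to -0.16) and Tlr1 by -0.62 (95% interval -1.16 to -0.07). Against CD8wt there were 6, Cd8a, Cd8b1, Cd160, Tlr1, Vipr1 and Cd40lg, with Vipr1 at 1.30 (95% interval 0.64 to 1.96), Cd160 at 0.93 (95% interval 0.20 to 1.67) and Tlr1 at 0.77 (95% interval 0.16 to 1.39). A missed threshold does not show that the groups are alike: the 95% intervals of the DPmut minus CD4mut differences were 0.694 to 2.46 log2 units wide over the 34 probe sets.

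**Figure D5:**
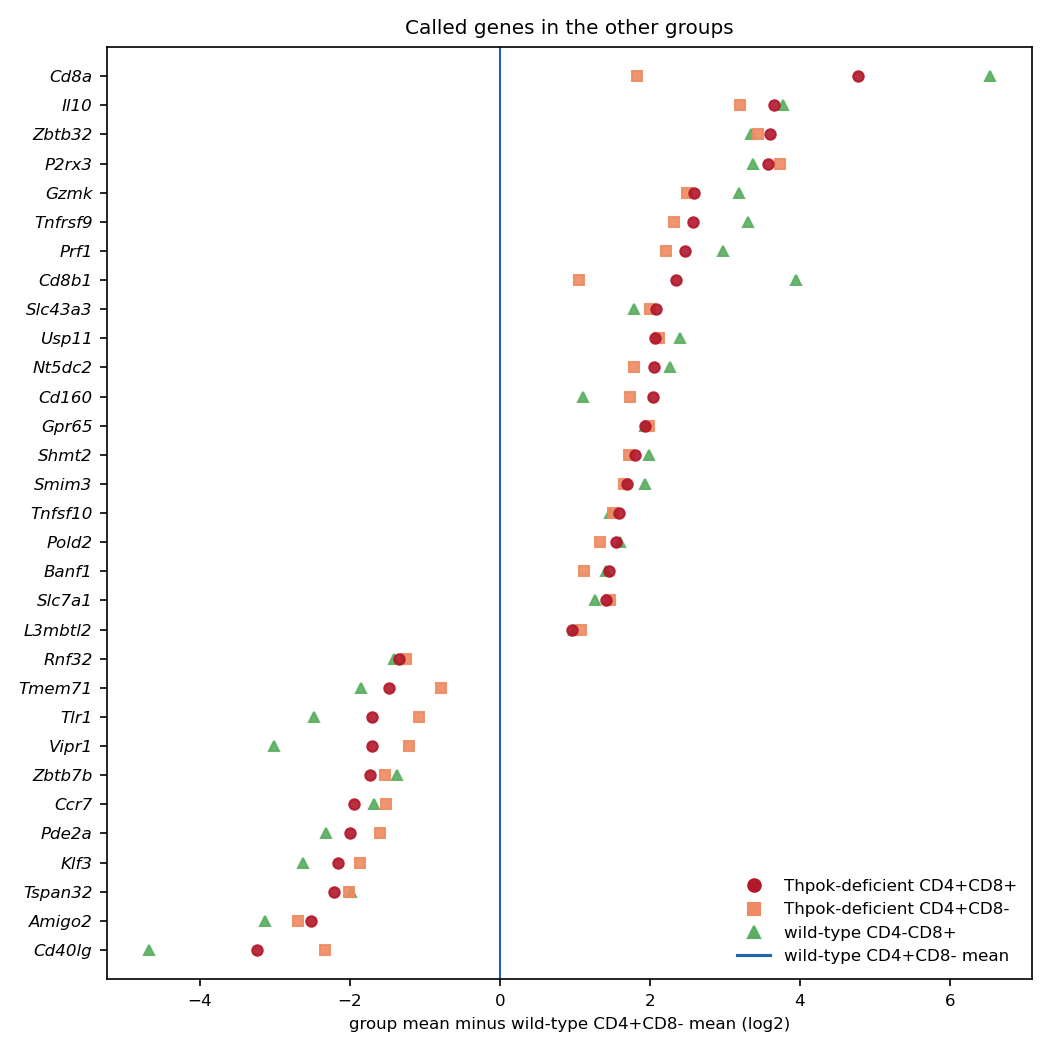
Group mean minus the wild-type CD4+CD8- mean (log2, horizontal axis) for the 31 named genes that passed the test, 1 per line, in Thpok-deficient CD4+CD8+ (red circles), Thpok-deficient CD4+CD8- (orange squares) and wild-type CD4-CD8+ cells (green triangles); the blue line at 0 is the wild-type CD4+CD8- mean. Cd8a, Cd8b1 and Cd40lg are spread out, with Cd8a 2.94 higher in the CD4+CD8+ than in the CD4+CD8- mutant cells.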

How the data were processed

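The series holds 11 arrays of RNA from sorted mouse T cells after Th1 culture. The deposited values are log2 intensities made by the authors with RMA and Partek under the mm9 build, per the submitters' processing notes, which give no versions. The series names the Affymetrix Mouse Exon 1.0 ST array, whereas the labels' protocols name a labelling kit for 3' arrays. The sources used here give no summary level and no filter. Scanner files were not analysed here. RMA as published ends with arrays of nearly equal distribution, yet the SD of the arrays ran from 1.54 to 2.06, and this was left in the values. For arrays, their number limits the precision.

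The table held 16673 probe sets, all of which were tested. In the array annotation 14970 carried 1 symbol, 1019 several and 684 none, and this named 14835 genes. The probe set with the highest mean was taken for the 134 genes that had more than 1. The number of columns mapped to no sample was 0. Positions of the arrays' features are not given, because the reference annotation is of a later build than mm9.

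Group means were estimated from all 11 arrays in 1 limma fit (limma 3.58.1, R 4.3.3), with 7 residual and 3.80 prior degrees of freedom. Two-sided p-values were corrected over all probe sets (Benjamini-Hochberg), and 0.05 was the threshold. The fit was tested on simulated data. Errors after ± are the moderated SE, and intervals are 95% intervals from the same fit, not adjusted over probe sets.

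The members, the 25 gene lists and 7 marker lists (486 of 609 entries measured) and the named genes were chosen with earlier results of these data known. Lists are described by counts and medians. Named are all probe sets that passed with 1 symbol, list members that passed or differed by at least 1 (up to 6 per list), and fixed lineage genes. Genes outside this rule, among them those that passed on 9 arrays alone and list members near 0, were chosen after their values were seen.

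Same-number arrays of DPmut and CD4wt correlated at 0.650, 0.429 and 0.724 after group means were removed. An alternative fit, the replicate block, therefore took the numbers as pairs, from the data and not the labels, and this pairing is not established. Without replicate 3 in either group the pairs correlated at 0.257, and CD4wt 2 correlated more with DPmut 1 (0.524). Alternatives covered normalization, a filter on mean signal, array weights, the arrays entering the fit, the prior and leaving out each array.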

Additional observations from a re-analysis of the deposited data

Results flagged for a closer look

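Cd4 changed from CD4wt by different amounts in DPmut and CD8wt cells, and the test of that difference, which is DPmut minus CD8wt, gave 4.95 on the log2 scale (limma, adjusted p = 0.00483). DPmut read 10.32, 9.19 and 9.77, and CD8wt 5.20 and 4.43. All 3 DPmut arrays were higher than both CD8wt arrays. Cd4 encodes the coreceptor by which the cells were sorted.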

How the results depend on the processing

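The 23 higher and 11 lower probe sets of DPmut against CD4wt became 60 and 86 after further quantile normalization, 9 and 2 with arrays centred on their median, 13 and 9 when also scaled, and 43 and 24 with a filter on mean signal (8337 probe sets kept). They were 3 and 1 with only the 6 arrays of both groups, 13 and 15 without both narrow arrays, and 22 and 11 with a trended and robust prior. The replicate block, which takes same-number arrays as pairs although no label says so, gave 56 and 30. Array weights gave 4533 and 4180, but that estimate did not converge and put a weight of 51.93 on CD4wt 1; a gene-by-gene estimate, chosen after seeing the data, gave 972 and 1015. Leaving out 1 array gave 3 to 40 higher and 1 to 30 lower. DPmut against CD4mut, 0 as reported, gave 1479 with array weights, 2 with the gene-by-gene estimate and 1 with the replicate block. DPmut against CD8wt, 1 as reported, gave 2 after quantile normalization, 2 with the filter, 0 without both narrow arrays, 4 with array weights, and 0 to 2 when 1 array was left out (2 without CD8wt 1, 0 without CD8wt 2). Signs reversed for genes that did not pass. Zbtb7a was -0.10 without both narrow arrays, -0.45 with array weights, -0.32 with the gene-by-gene estimate and ran from -0.06 (without CD4wt 3) to 0.48 (without CD4wt 1) when 1 array was left out. Cbfb was -0.05 after quantile normalization, -0.04 when scaled, and -0.03, -0.10 and -0.15 without DPmut 1, DPmut 2 and CD4wt 3, up to 0.29 without DPmut 3. With array weights Runx3 was -0.02, Tox 0.02, Ccl5 -0.34 and Tnf -0.51, and with the gene-by-gene estimate Ccl5 was -0.07 and Tnf -0.02. The cause was not tested. Of 1481 values of 93 named genes under alternatives, 1174 kept direction and side of the threshold. That count includes genes that passed in neither run. The 31 genes that passed lost the threshold in 176 values, and genes that had not passed did so in 116. Of 511 list medians 461 moved by less than the SD of list means between replicates. That SD includes the narrow arrays, so the count cannot show that medians hold without them. The glycolysis change from 0.40 to 0.02 without both narrow arrays is within it. Cd8a, Cd8b1, Zbtb32 and Amigo2 passed in every alternative run.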

Other observations

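Among genes outside the programs described, those of the interferon response lay mostly below CD4wt. Of 20 measured, 14 had a negative difference, none passed the test, and the median was -0.41, or -0.21 without both narrow arrays. Ifit2, an interferon-induced RNA-binding protein, differed by -0.97 and Ifih1, the RNA sensor MDA-5, by -0.86, and neither passed (limma, adjusted p = 0.270 and 0.105). Genes of follicular helper T cells had a median of -0.62 over 13, with Pdcd1 at 1.49 and Bcl6, the factor that defines these cells, at -0.73. Immediate early genes of T cell activation had a median of 0.49 over 19, led by the nuclear receptor Nr4a2 at 1.59 (adjusted p = 0.138), and the median was 0.25 without both narrow arrays. Cytokine receptors and their signalling genes had a median of -0.23 over 30. In none of these lists did a gene pass the test.

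Asns, which encodes asparagine synthetase, varied widely within groups. It read 7.85, 5.64 and 5.95 in DPmut, 6.62, 5.30 and 8.34 in CD4mut, 9.01 and 8.54 in CD8wt, and 5.29, 4.49 and 5.16 in CD4wt. The DPmut difference from CD4wt was 1.50 ± 0.72 (limma, adjusted p = 0.586).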
